A study of Homo sapiens with 8 samples.

Results

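The replication-dependent histone genes were examined for chromatin accessibility in MCF10A cells, an immortalised and non-tumorigenic human mammary epithelial cell line, during treatment with TGFβ1. The members were all protein-coding GENCODE genes on chromosomes 1 and 6 whose symbol is H1-, H2AC, H2BC, H3C or H4C followed by digits. This gave 68 genes of 19970 protein-coding genes: 6 H1, 17 H2A, 18 H2B, 13 H3 and 14 H4 genes. Accessibility was measured by ATAC-seq, in which a transposase inserts adapters into open DNA, in 8 samples of wild-type MCF10A cells. Each condition had 2 samples: solvent without TGFβ1 and TGFβ1 at 5 ng/ml for 6 h, 24 h or 72 h. All cells were grown with horse serum, EGF, hydrocortisone, cholera toxin and insulin, and controls received BSA in PBS in place of TGFβ1. The GEO labels place solvent at 0 h whereas a figure legend of the study has the solvent control kept for 72 h. The authors called peaks on both replicates of a condition together, so each condition has 1 list and 1 value per region. No replicate error exists for any value here, and no test was possible, so all differences are descriptions of 4 pooled lists. A list pools many cells, so fewer cells with an open promoter and a less open promoter in each cell cannot be told apart.

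Histones package DNA into nucleosomes. H2A, H2B, H3 and H4 form the nucleosome core, and the linker histone H1 binds where DNA enters and leaves it. Most histone protein is made during S phase from short, intronless genes whose mRNAs end in a stem-loop instead of a poly(A) tail. These genes lie in clusters, many H2A and H2B genes stand head to head and share 1 promoter, and their transcription and 3′ processing take place in nuclear histone locus bodies organised by NPAT. In epithelial cells TGFβ1 is known both as an inhibitor of proliferation and as an inducer of epithelial to mesenchymal transition, in which cells lose their epithelial character.

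The members fell into 6 clusters, split where neighbouring members were more than 200 kb apart. The largest held 32 genes over 269 kb of chromosome 6, beginning with H1-1. Others on chromosome 6 began with H2BC13 (16 genes), H2BC11 (5 genes) and H2AC1 (2 genes), and those on chromosome 1 began with H2BC18 (11 genes) and H2AC25 (2 genes). There were 12 head-to-head H2A and H2B pairs, with 193 to 250 bases between their TSSs.

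The sequences before the TSS differed by histone class, as shown here for the members on which the results below turn. RefSeq promoter windows of GRCh38.p14 were matched for 63 of the 68 members and 15314 protein-coding genes and cut to the 250 bases before the TSS. Both strands were searched for the common TATA box, spelled TATAAA. The next motif was the CCAAT box, named by its letters. The octamer known from H2B promoters was spelled ATTTGCAT. The H1 box was spelled AAACACA. The subtype element of H4 promoters was spelled GGTCCG. The last motif, the AP-1 site of JUN and FOS proteins, was spelled TGANTCA. The following stretches are written 5′ to 3′ on the stated strand of GRCh38, the pairs as the bases between their TSSs and the single genes as the 150 bases before theirs. Capitals mark a match to any of the 6 motifs on either strand, and where a CCAAT box and an H4 element overlapped, as in the first sequence, the capitals run together. The first pair had the largest AUC of all, the second had no peak, H4C11 and H4C12 are near-identical copies with unlike values, H4C9 and H4C14 had no peak, H1-2 had the largest AUC of an H1 gene's own region, and H3C3 was low at 24 h.
H2BC21 to H2AC20 (chr1:149886683-149886917, + strand): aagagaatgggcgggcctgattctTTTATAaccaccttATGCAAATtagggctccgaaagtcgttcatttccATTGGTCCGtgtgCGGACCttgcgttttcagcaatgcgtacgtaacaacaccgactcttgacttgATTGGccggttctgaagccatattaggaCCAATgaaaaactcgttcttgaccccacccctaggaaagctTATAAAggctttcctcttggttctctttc
H2AC1 to H2BC1 (chr6:25726563-25726776, + strand): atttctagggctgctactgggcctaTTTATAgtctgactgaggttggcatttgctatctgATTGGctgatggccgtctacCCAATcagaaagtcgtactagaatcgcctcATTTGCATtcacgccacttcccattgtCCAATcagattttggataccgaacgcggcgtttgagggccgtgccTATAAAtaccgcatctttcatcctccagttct
H4C11 (chr6:27823942-27824091, + strand): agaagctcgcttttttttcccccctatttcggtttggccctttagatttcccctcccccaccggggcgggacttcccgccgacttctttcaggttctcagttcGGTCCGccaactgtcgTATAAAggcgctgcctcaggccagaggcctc
H4C12 (chr6:27831561-27831710, - strand): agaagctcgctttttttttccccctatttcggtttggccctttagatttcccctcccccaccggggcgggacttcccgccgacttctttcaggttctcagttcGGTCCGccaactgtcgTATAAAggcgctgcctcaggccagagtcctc
H4C9 (chr6:27139132-27139281, + strand): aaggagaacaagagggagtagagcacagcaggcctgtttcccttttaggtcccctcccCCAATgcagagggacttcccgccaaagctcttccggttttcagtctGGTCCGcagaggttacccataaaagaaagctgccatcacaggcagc
H4C14 (chr1:149832507-149832656, + strand): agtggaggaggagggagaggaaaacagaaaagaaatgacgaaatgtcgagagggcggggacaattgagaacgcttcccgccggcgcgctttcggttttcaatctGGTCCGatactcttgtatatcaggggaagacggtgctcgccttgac
H1-2 (chr6:26056471-26056620, - strand): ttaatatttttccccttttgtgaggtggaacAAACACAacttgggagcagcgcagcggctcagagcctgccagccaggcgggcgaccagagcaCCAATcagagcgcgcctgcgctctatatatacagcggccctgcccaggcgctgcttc
H3C3 (chr6:26045234-26045383, + strand): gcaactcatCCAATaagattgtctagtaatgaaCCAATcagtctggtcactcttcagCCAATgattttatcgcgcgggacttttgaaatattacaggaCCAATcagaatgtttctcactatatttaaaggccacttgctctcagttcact

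The H1 box was present before 6 of 6 H1 genes and before none of the other 57 members, against 3.47% of all windows. The H4 element was present before 11 of 12 H4 genes and before 3 members of other classes (H2BC21, H2AC20 and H3C7), against 12.7% of all windows. The octamer stood before 14 of 18 H2B and 11 of 16 H2A genes and before no H1, H3 or H4 gene, against 1.66%. Since paired H2A and H2B genes share their bases, these are not separate observations, and 9 of the 12 stretches between paired TSSs held an octamer. CCAAT boxes were present before all matched H1, H2A, H2B and H3 genes but before 3 of 12 H4 genes, against 34.9% of all windows. The TATA box was found before 41 of 63 members, against 9.10%. The AP-1 motif was found before 1 member, H3C8, against 4.79% of all windows. The members' windows were poor in G and C, with a median of 43.6% against 63.2% over all windows. A match is only a run of letters and does not show binding.

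**Figure D1:**
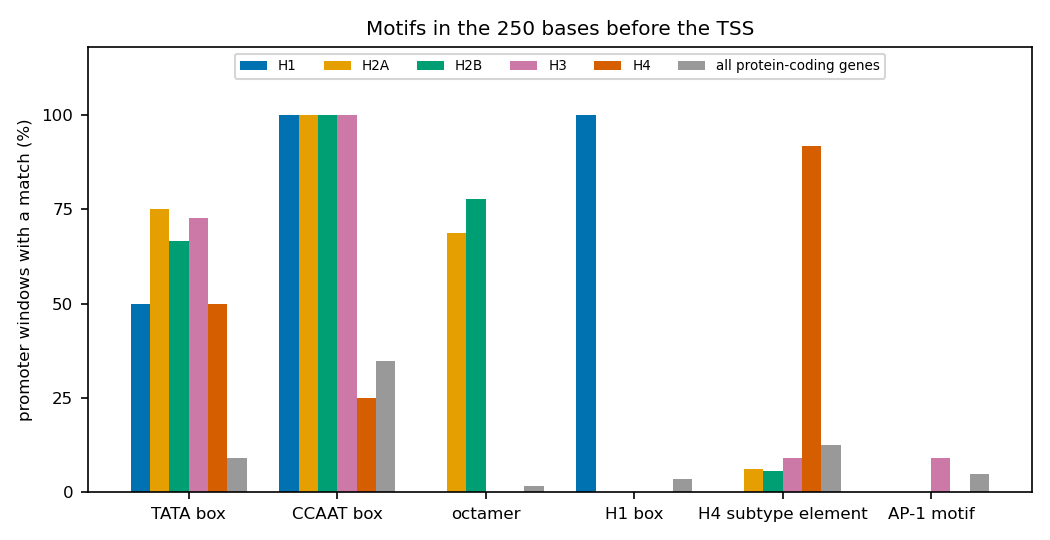
Bars give the percentage of promoter windows (250 bases before the TSS) with at least 1 match on either strand, for each histone class and for all 15314 protein-coding windows in grey. The H1 box stands at 100% in H1 genes and the H4 subtype element at 91.7% in H4 genes, whereas the octamer is seen in H2A and H2B genes.

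The peak of a list is described here by its AUC, the area under the curve of significance above the caller's threshold, which grows with both peak width and sequencing depth. The lists held 86209 (solvent) to 118433 (24 h) peaks with a smallest AUC of 200, and read totals were not used here, so depth is unknown. Merging the lists gave 126658 regions, of which 22232 lay within 1 kb of a protein-coding TSS and are called promoter regions. AUC ratios to solvent were scaled by their median at regions within 3 kb of any TSS, which was 1.36, 1.30 and 1.19 in the order 6, 24 and 72 h. Ratios are given as log2 after this scaling, and a region is called higher or lower when it passed 1.2-fold. As a check of the cell line, all 5 epithelial genes looked up (KRT5, KRT14, KRT17, CDH1 and LAMB3) had peaks in every list. KRT14 was weak in solvent, with a summed AUC of 357. Of 4 blood genes, 3 had no region and PTPRC had peaks in the TGFβ1 lists only.

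Of the 68 members, 58 had a region within 1 kb of a TSS, against 74.0% of protein-coding genes, and the same 58 had a peak in each of the 4 lists. They were served by 62 regions, 28 of which lay near several members. A peak was present in all 4 lists at 52 regions, against 18529 of 22232 promoter regions, and 41 regions covered the main TSS of a member. Of the 12 head-to-head pairs, 11 lay in a region that covered both TSSs. The median AUC of the histone regions in solvent was 2228, near the 2025 of all promoter regions, and 2520 for those over a main TSS. In solvent the summit lay before the TSS for 41 of 53 members with a peak over it. The median summit position was −44 bp for H1, −121 bp for H2A, −98 bp for H2B, −88 bp for H3 and 45 bp for H4 genes. Paired H2A and H2B genes in 1 region share its summit, which is counted for each gene, so these are not separate observations. The H4 value rests on 7 genes in solvent and moved to 84, −37 and −115 bp over 9, 8 and 8 genes at 6, 24 and 72 h.

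No region was found for 10 members. H2AC1 and H2BC1, the remaining head-to-head pair, and H1-6 encode testis histones. H4C6, H4C7 and H4C9 on chromosome 6 also lacked a region, although the bases within 500 bp of their TSSs occur only once in the genome in stretches of 100. The other 4 were H3C14, H3C15, H4C14 and H4C15 in the chromosome 1 cluster that begins with H2BC18. For those 4 and for H2AC18 and H2AC19, every stretch of 100 bases within 500 bp of the TSS occurs again in the genome. H4C14 and H4C15 were identical over all 250 bases before the TSS. The authors removed reads of low mapping quality, so closed chromatin and unplaced reads cannot be told apart at these 6 genes, though read pairs that span more than 100 bases may place some reads. H2AC18 and H2AC19 had weak regions 565 and 853 bp from the TSS, with AUCs of 306, 546, 423 and 304 and of 303, 345, 342 and 250 in solvent and at 6, 24 and 72 h. At 46 members no stretch of 100 bases was repeated.

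The largest AUCs belonged to head-to-head pairs on chromosome 1. The region of H2BC21, H2AC20 and H2AC21 (chr1:149884700-149889320) had an AUC of 14878 in solvent, which became 18932 at 6 h, 16746 at 24 h and then 17159 at 72 h. It spanned 4621 bp and exceeded 99.9% of promoter regions in solvent. The pair H2AC25 and H2BC26 (chr1:228457014-228459527) followed with 11418, 12944, 11517 and 11027. After the scaling described above its log2 ratios were −0.37 at 24 h and −0.30 at 72 h, both lower past the fold. On chromosome 6 the pair H2BC4 and H2AC6 had 7527, 9065, 8390 and 8750. The region over the TSS of H2BC5, which lies within 1 kb of that of H1-4, had 6764, 8088, 7443 and 7421. Both kept within the fold at all times. Among regions of an H1 gene alone, that of H1-2 was largest, with 4902, 6293, 5882 and 5656. Among regions near an H3 gene, the largest in solvent lay over the TSS of H2BC10 and within 1 kb of that of H3C8, with 4233, 5376, 4444 and 4072. The region shared by H3C1 and H4C1 was the largest near an H4 gene, with 3778, 5659, 4859 and 5239, and exceeded that of H2BC10 at all 3 times of TGFβ1. Single-gene H4 promoters such as H4C3 (2520, 3442, 3408 and 3218) and H4C5 (2347, 3252, 2873 and 2924) lay close to the median of all promoters. Before scaling, 44 of the 52 regions in all lists were lowest in solvent and 45 were highest at 6 h, as were 85.9% and 70.3% of promoter regions.

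**Figure D2:**
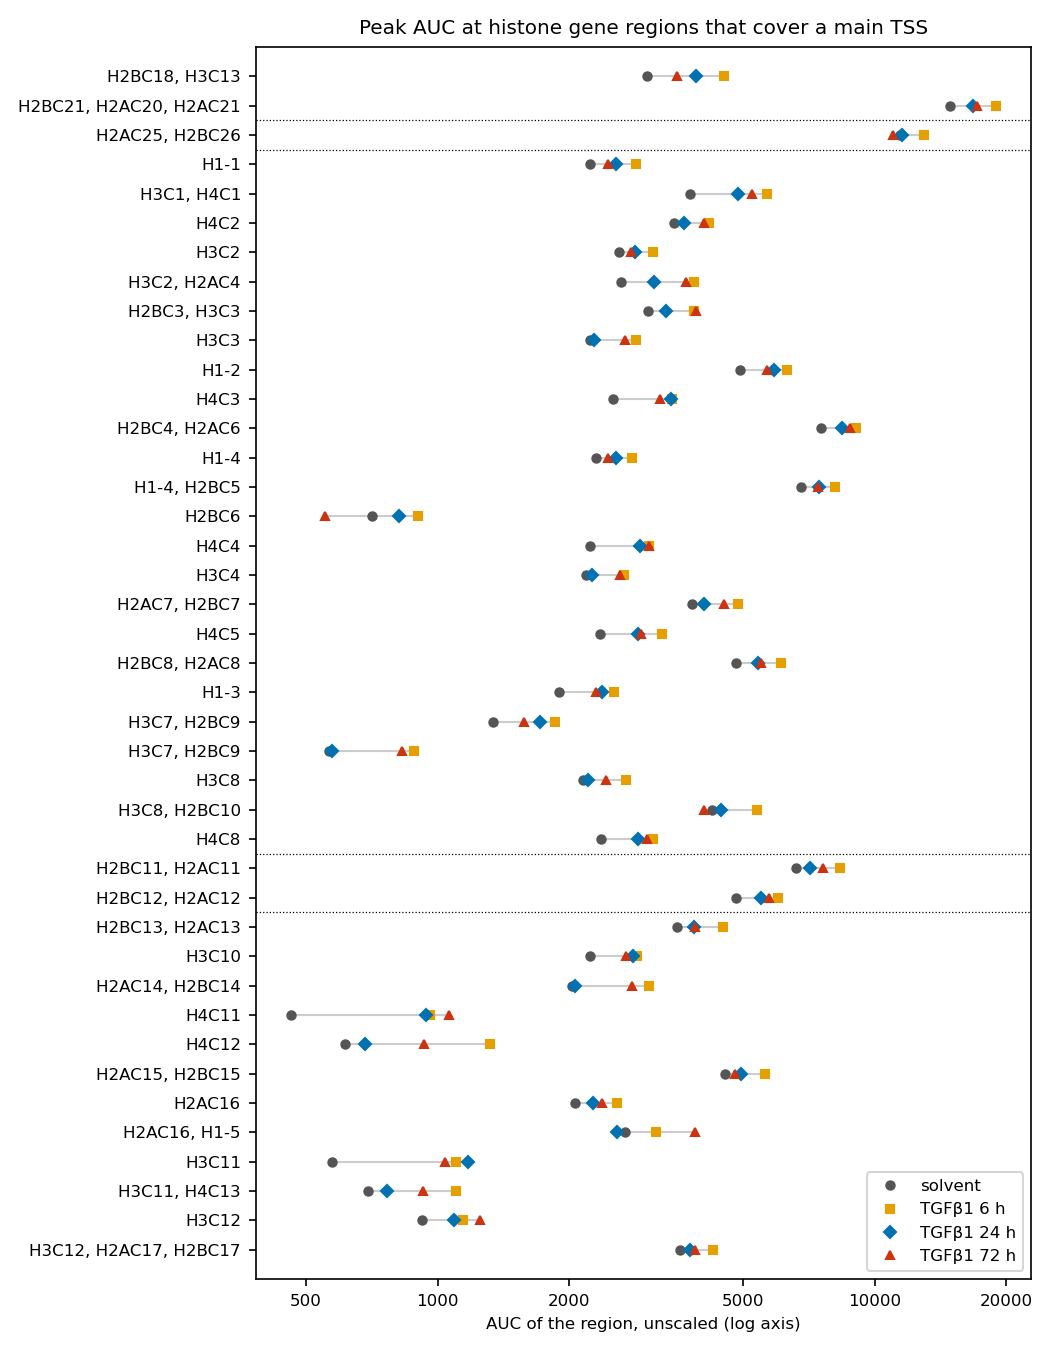
Unscaled AUC on a log axis for the 41 regions that cover a main TSS, in genome order from chromosome 1 to chromosome 6, with dotted lines between clusters and 1 symbol for each pooled list. The region of H2BC21, H2AC20 and H2AC21 reaches 18932, and H4C11, H4C12, H3C11 and H2BC6 are among the weakest in solvent.

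After scaling, the histone regions as a whole stood close to solvent at 6 and 72 h and below it at 24 h. The median scaled log2 ratios at the successive times were −0.09, −0.22 and −0.02, against −0.03, −0.05 and −0.06 over all promoter regions, and without scaling all 3 histone medians were above 0 (0.35, 0.16 and 0.22). At 6 h, 4 of 54 regions were higher and 1 was lower, where 14.3% and 5.11% of promoter regions were. At 24 h, 3 were higher and 16 of 54 lower, against 16.9% and 10.1%. At 72 h, 5 were higher and 6 of 53 lower, against 16.2% and 11.6%. With this scaling the share lower at 24 h thus stood above the background, and the shares higher stood below it at each time. The counts depend on the setting: 0 regions were lower at 24 h with no scaling or with the summit height, 7 with AUC per base, 29 with scaling among regions of like GC content and 35 with scaling over all shared regions. With no scaling, 46, 16 and 21 histone regions were higher at 6, 24 and 72 h. The share of promoter regions past the fold was not counted in these settings, so no background stands beside these counts. With scaling among regions of like AUC, 15 of 54 histone regions were lower at 24 h, against 2367 of 18803 promoter regions. The histone regions also had a lower GC content than promoter regions, with medians of 50.6% and 59.2%, and when the ratios were scaled among regions of like GC content the medians were −0.11, −0.29 and −0.11. When they were scaled among regions of like AUC the medians were −0.03, −0.16 and 0.04.

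The low values at 24 h were followed within the TGFβ1 lists, where solvent enters only through the scaling of each list. This pattern was chosen after its values were seen. Among histone regions with a peak at all 3 times, 39 of 53 had their lowest scaled AUC at 24 h, as did 31.0% of promoter regions. It was 35 of 41 for regions over a main TSS and 4 of 12 for regions beside one. Among regions with a solvent AUC of 1000 or more it was 35 of 39 for histone genes and 36.5% for all promoter regions, and among weaker ones 4 of 13 and 20.9%. The median step of the histone regions was −0.12 from 6 to 24 h and 0.15 from 24 to 72 h on the log2 scale, against −0.01 and 0.00 for promoter regions. With no scaling the share among regions present in all 4 lists was 53.8% against 10.3% of promoter regions. With AUC per base it was 53.8% against 30.1%, and with the height of the summit (−log10 p) 57.7% against 32.0%. In every one of these settings the share was larger among the histone regions.

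The pair H2AC14 and H2BC14 had an AUC of 2028 in solvent, then 3042, 2062 and 2780. Its scaled log2 ratios were thus 0.14, −0.36 and 0.21. The region over the TSS of H1-5, which lies within 1 kb of that of H2AC16, had 2681, 3163, 2564 and 3880, the only one of these whose AUC at 24 h was below solvent even unscaled. H3C3 had 2229, 2845, 2272 and 2686, and H3C4 2188, 2671, 2254 and 2609. These AUCs are unscaled. After scaling, H3C3 had log2 ratios of −0.09, −0.35 and 0.02 and H3C4 of −0.15, −0.34 and 0.01, so both were lower past the fold at 24 h alone. H3C8, with the AP-1 motif, had 2150, 2698, 2207 and 2426. The second region near H3C7 and H2BC9 had 564, 882, 574 and 829. Not every member followed: H4C3 had scaled log2 ratios of 0.01, 0.06 and 0.11, and H3C10 of −0.09, −0.06 and 0.02.

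By class, H4 regions had the highest median at each time, except with AUC per base at 72 h, where they had the lowest, and with scaling among regions of like GC content at 24 h, where H1 had the highest. The medians at 6, 24 and 72 h were 0.04, −0.10 and 0.14 for H4, −0.09, −0.24 and 0.02 for H3, −0.10, −0.23 and −0.04 for H2A, −0.09, −0.24 and −0.05 for H2B, and −0.13, −0.18 and −0.11 for H1. Regions that serve several classes were counted in each. All classes were lowest at 24 h, and the share of their regions lowest at 24 h ran from 70.0% in H4 to 82.4% in H3. At 24 h, 10.1% of promoter regions were lower. Lower regions then numbered 9 of 24 for H2B, 7 of 20 for H2A, 7 of 18 for H3, 2 of 11 for H4 and 1 of 7 for H1. Of these, 5 served H2A and H2B genes and no other class, so they stand in both counts and are not separate observations. The spread between the highest and the lowest class median was 0.24 at 72 h and shrank to 0.14 with scaling among regions of like AUC and to 0.06 with AUC per base.

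**Figure D3:**
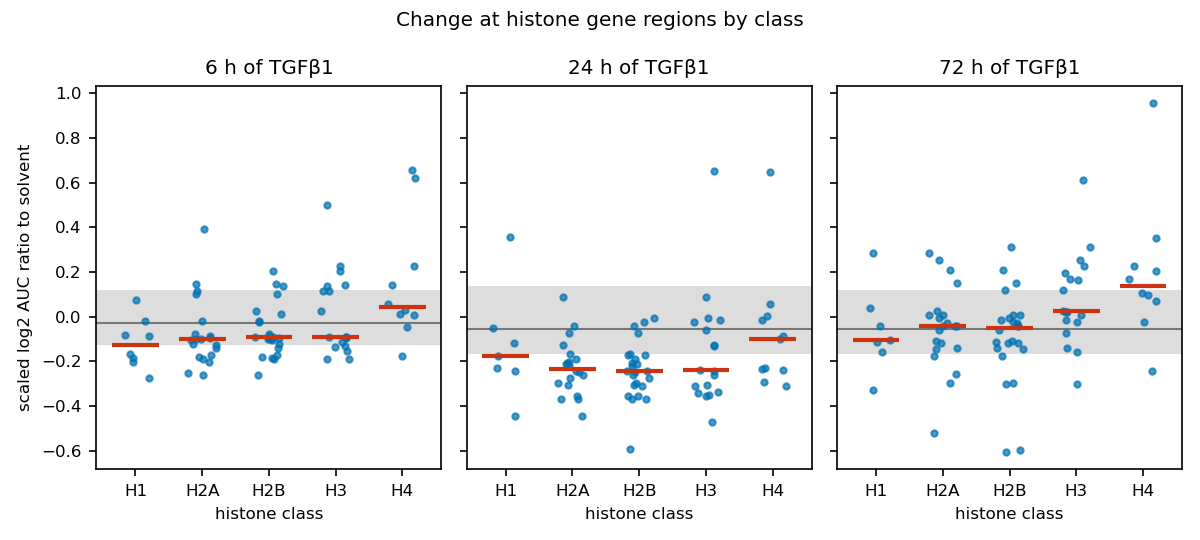
Each point is 1 region, plotted by histone class (x axis) and scaled log2 AUC ratio to solvent (y axis) at 6, 24 and 72 h, with the class median as a red bar and the median and middle 50% of all promoter regions as the grey line and band. At 24 h the medians of H1 (−0.18), H2A (−0.23), H2B (−0.24) and H3 (−0.24) lie under the band, and the points far above it at all times are H4C11 and H3C11.

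By cluster, the median was lowest at 24 h in the 3 chromosome 6 clusters that held regions and in the single region of the chromosome 1 cluster from H2AC25, which had −0.26, −0.37 and −0.30. In the same order of times, the medians were −0.09, −0.22 and −0.02 over the regions of the cluster that begins with H1-1, and 24 of its 29 regions were lowest at 24 h. In the cluster that begins with H2BC13 they were −0.08, −0.23 and 0.09, and 10 of 15 regions were lowest then. In the small cluster from H2BC11 they were −0.12, −0.28 and 0.01, and all 3 regions were. The chromosome 1 cluster from H2BC18 had medians of −0.03, −0.20 and −0.26 over 5 regions, of which 1 was lowest at 24 h and 3 were weak regions beside the TSS. In its region over H2BC18 and H3C13 the AUCs were 3014, 4506, 3899 and 3520.

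Between the members the clusters held 27 further regions not within 1 kb of a member TSS. Their medians were 0.10, 0.02 and 0.13 at 6, 24 and 72 h, and 10 of 21 were lowest at 24 h.

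Of 52 regions with all 3 ratios, 2 were past the fold in the same direction at all 3 times, both higher. Both lay at genes of the H2BC13 cluster that were weak in solvent. The share of promoter regions past the fold at all 3 times was not counted. At 6, 24 and 72 h taken singly, 14.3%, 16.9% and 16.2% of promoter regions were higher. H4C11 (chr6:27824048-27824999) had an AUC of 461 in solvent, then 962, 939 and 1060. The solvent value was far below the TGFβ1 values, which were close together, and the scaled log2 ratios were 0.62, 0.65 and 0.95. The summed width of its peaks was 667 bp in solvent and 925 to 939 bp after TGFβ1. The TSS of H4C11 lay in no solvent peak. In the TGFβ1 lists the summit lay 504 to 506 bp after the TSS, beyond the annotated end of the gene. H3C11 (chr6:27871938-27872519) had 574, 1102, 1175 and 1041, with ratios of 0.50, 0.65 and 0.61. With scaling among regions of like AUC they were higher by 0.50, 0.43 and 0.76 for H4C11 and by 0.38, 0.49 and 0.44 for H3C11. H4C12, whose 250 bases before the TSS match those of H4C11 at 245 positions, was also higher past the fold at 6 and 72 h but not at 24 h. It had 613, 1314, 681 and 929, with ratios of 0.66, −0.23 and 0.35. With scaling among regions of like AUC these were 0.55, −0.46 and 0.19, so H4C12 was then higher past the fold at 6 h alone. Its TSS lay in a peak at 6 h only, with the summit 607 bp after the TSS, beyond the annotated end of the gene. At both genes 32.6% of the stretches of 100 bases around the TSS were repeated in the genome, and how many reads of these copies could be placed was not measured. Among promoter regions with a solvent AUC under 1000, the medians were 0.14, 0.19 and 0.16, so weak regions in general had higher ratios than strong ones. Of these weak promoter regions, 2144 of 5778, 2468 of 5663 and 2224 of 5432 were higher at 6, 24 and 72 h.

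**Figure D4:**
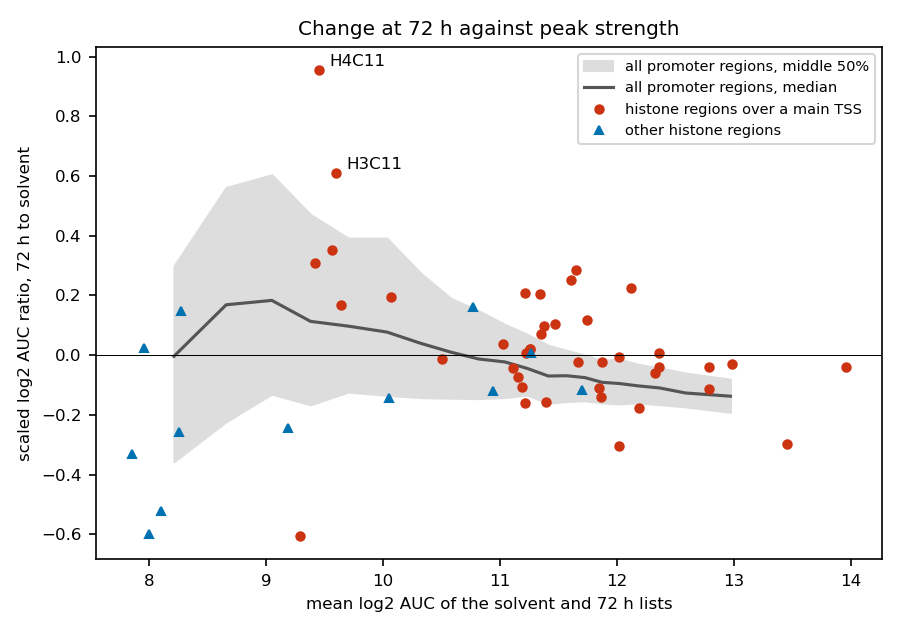
Scaled log2 AUC ratio of 72 h to solvent against the mean log2 AUC of both lists, for histone regions over a main TSS (red circles), other histone regions (blue triangles) and all promoter regions (grey, median and middle 50% in 20 bins). H4C11 at 0.95 and H3C11 at 0.61 lie above the grey band, and weak promoters in general show a wider spread than strong ones.

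The remaining extremes at 72 h were spread over classes. The highest ratio of an H2B region was 0.31, at the second region near H3C7 and H2BC9, and that of the H1 and H2A regions was 0.29, at the region of H1-5. The lowest were weak regions: H2BC6 over its TSS at −0.60 (708, 903, 816 and 552), a region beside H2BC18 at −0.60 (290, 386, 250 and 227) and that beside H2AC19 at −0.52. The lowest H3 ratio was −0.30 at the region over the TSS of H2BC10 near H3C8, the lowest H1 ratio −0.33 in a weak region downstream of the H1-1 TSS (238, 341, 397 and 225), and the lowest H4 ratio −0.24 beside H4C5. All 4 lists held a peak at 52 of 62 histone regions and at 18529 of 22232 promoter regions. The 10 histone regions with a peak in some lists only were small and lay beside a main TSS, with AUCs of 214 to 343. They lay near H1-1, H1-2, H1-4, H3C4, H2AC7 and H2BC7, H2BC8 and H2AC8, H3C6, H4C8, H4C11, and H3C12 and H2AC17.

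Genes of other lists were compared with the members at the same regions and scaling. S phase and replication genes showed a like pattern: 25 of 35 regions were lowest at 24 h, with medians of −0.07, −0.15 and −0.06. PCNA, the sliding clamp of DNA polymerase, had AUCs of 5518, 6398, 5872 and 5865 and ratios of −0.23, −0.29 and −0.16. The highest and the lowest S phase gene at 72 h were CHAF1B, a chromatin assembly factor subunit, at 0.15 and CDC45, a helicase component, at −0.20. Over all regions of the S phase list the ratios at 72 h ran from −0.27 to 0.87. For the ribosomal protein genes, which are active throughout the cell cycle, 31 of 107 regions were lowest at 24 h, and the medians were −0.07, −0.08 and −0.10. Their extremes by gene at 72 h were RPL6 at 0.21 and RPL21 at −0.32, whereas over all their regions the ratios ran from −1.51 to 0.78. The protein-coding genes in and within 100 kb of the clusters that are not members, without regions shared with members, had 0 of 12 regions lowest at 24 h. Their medians were −0.07 at 6 h and 0.01 at 72 h, and their extremes by gene at 72 h were TRIM38 at 0.40 and BTN3A2 at −0.20. Over all regions of these neighbours the ratios at 72 h ran from −0.20 to 0.93.

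**Figure D5:**
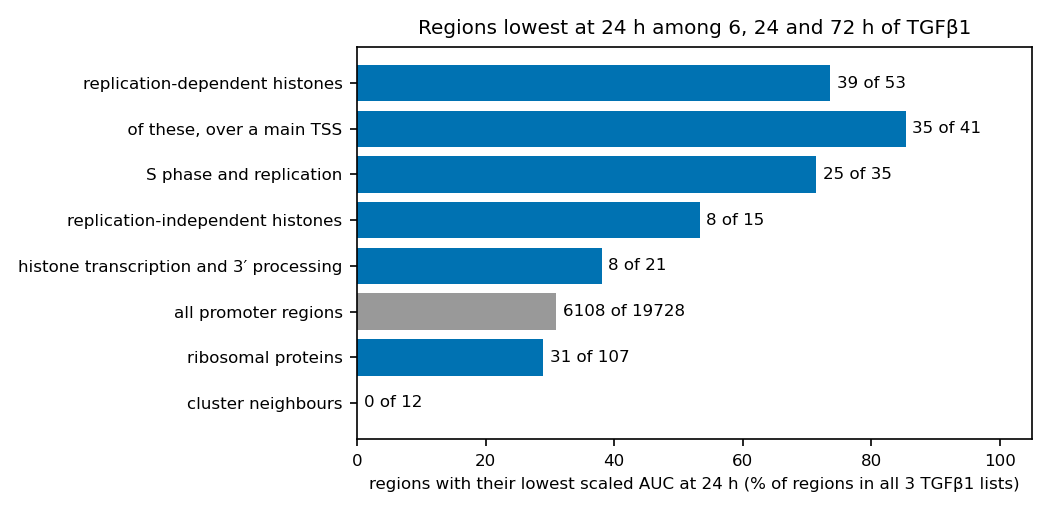
Bars give the percentage of regions, among those with a peak at 6, 24 and 72 h of TGFβ1, whose scaled AUC was lowest at 24 h, with the counts beside them and all promoter regions in grey. The replication-dependent histone genes (39 of 53) and S phase genes (25 of 35) stand highest, and the neighbours of the histone clusters (0 of 12) lowest.

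Replication-independent histone genes, many of which encode variants made also outside S phase, had 8 of 15 regions lowest at 24 h. Their medians were −0.08, −0.12 and −0.13. In this list 2 of 15 regions were higher at each time, and 0, 3 and 0 were lower at 6, 24 and 72 h. H2AZ1 had AUCs of 6943, 8246, 7316 and 7071 and ratios of −0.19, −0.30 and −0.22, lower past the fold at 24 h. Its ratio at 72 h was the lowest by gene in the list. H2AX, the variant phosphorylated at DNA breaks, had 6188, 7837, 7441 and 6663, and all its ratios lay between −0.14 and −0.10. The H3.3 genes were likewise within the fold at all times, H3-3A at −0.14, −0.18 and −0.15 and H3-3B at −0.08, −0.12 and −0.04.

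Genes for the transcription and 3′ processing of histone mRNA had 8 of 21 regions lowest at 24 h and medians of −0.09, −0.14 and −0.13. NPAT had AUCs of 5979, 7630, 7061 and 6668 and ratios of −0.09, −0.14 and −0.09. SLBP, which binds the stem-loop of histone mRNA, had ratios of −0.14, −0.18 and −0.17, and CASP8AP2, another component of histone locus bodies, −0.18, −0.14 and −0.05. The extremes by gene at 72 h were CPSF2, a subunit of the cleavage complex, at 0.06 and LSM11, a component of the U7 particle, at −0.27. Over all regions of this list the ratios at 72 h ran from −0.27 to 0.14. Of the 5 genes of cell cycle inhibitors, CDKN2A and CDKN2B, a locus known to be deleted in MCF10A, had no region in any list. By gene, CDKN1A was the highest at 72 h, at 0.21, and CDKN1C the lowest, at −0.42, whereas over all regions of the list the ratios ran from −0.42 to 0.62.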

How the data were processed

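Chromatin accessibility was measured by ATAC-seq in 8 MCF10A samples, 2 for each of 4 conditions. Per the methods of the study and the submitters' processing notes, the authors used Trimmomatic 0.38 for trimming and Bowtie2 2.4.5 for mapping to GRCh38, removed duplicates (Picard) and reads that were mitochondrial or of low mapping quality (SAMtools 1.4.1), called peaks on both replicates together with Genrich 0.5, and dropped blacklisted regions. The deposited signal of a peak is its AUC, unscaled between lists, and the deposited −log10 p is that of its summit. The lists carry no sample labels, and their names gave the condition.

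Peaks of the 4 lists were merged where they overlapped by at least 1 bp. AUCs were summed per region and list, and genes came from GENCODE 44. A region served a gene when it lay within 1 kb of a TSS of any of its transcripts. A change past 1.2-fold after scaling counted as higher or lower. All members could be named, and of other lists a fixed set (NPAT, CASP8AP2, SLBP, H2AZ1, H2AX, H3-3A, H3-3B, CDKN2B and PCNA) and the extremes at 72 h, of which 1 gene is not reported here. The members and lists were chosen with earlier results of these data known. The depth is unknown, and its effect on single regions was not measured. Computation used Python 3.11.15 with pandas 2.3.3 and numpy 2.4.6, and the region arithmetic was tested on simulated data. Alternatives covered the scaling, the measure, the window, the TSS set, the peak lists, the fold and repeated genes.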

Additional observations from a re-analysis of the deposited data

How the results depend on the processing

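No value has a replicate error, and leaving out a replicate was not possible because each list pools both. No paired analysis was possible because the lists carry no replicate values. Of the main results, 174 values under other settings stayed within 0.1 on the log2 scale or within 1.5-fold of the count, and 49 moved. Those that moved are given here, and the cause was not tested unless the setting itself shows it. Promoter regions past the fold were counted with the main scaling and the scaling on mean AUC alone. Without scaling between lists the histone medians were 0.35, 0.16 and 0.22 at 6, 24 and 72 h, with 46, 16 and 21 regions higher and 0, 0 and 3 lower, and the cluster medians at 24 h reversed to 0.012 for the cluster from H2AC25 and 0.10 for that from H2BC11. With the median over all shared regions as scaling, the medians were −0.34 at 24 h and −0.17 at 72 h, with 4, 35 and 14 regions lower and 2 higher at 72 h. With scaling in bins of GC content, 5, 29 and 11 regions were lower and 3 higher at 72 h. With scaling on mean AUC, 2 regions were lower at 6 h and the spread between class medians at 72 h was 0.14. With AUC per base, 6 regions were lower at 6 h and 7 at 24 h, and the spread between class medians was 0.056 at 6 h and 0.061 at 72 h. With the summit −log10 p, which spans a narrow range, 0 regions were higher or lower at any time. Its median at 24 h was −0.059, its class spreads were 0.046, 0.039 and 0.070, its cluster spreads 0.057, 0.055 and 0.12, and its median of 24 h minus the mean of 6 and 72 h was −0.023. At a fold of 1.5, 2 regions were higher at 6 h and at 72 h, and 0, 1 and 2 were lower at the 3 times. At 72 h, 3 regions were lower with lists of equal length, with only peaks of at least 2 times the smallest AUC and with only regions over a main TSS, and under the latter pair of settings 0 were lower at 6 h. The last of these settings, the GC bins and the results on the lowest value at 24 h were chosen after seeing the data. Regions within 500 bp or the main transcript's TSS alone, and leaving out near-identical copies, moved no main result. Among class and cluster medians taken singly, 237 stayed, 91 moved and 2 reversed. Peaks under an AUC of 200 were not listed, so weaker signal cannot be seen at any depth.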
